A study of Mus musculus with 308 samples.

Results

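Brain tissue of mice given dimethyl fumarate (DMF) together with salts of monoethyl fumarate (MEF) was compared with brain tissue of mice given vehicle. The comparison rests on 8 arrays of the combination and 8 arrays of vehicle, picked by their sample titles out of 46 brain arrays and 308 arrays from 7 tissues. All mice were of the C57BL/6 strain. The combination was DMF at 100 mg/kg with MEF at 79.2 mg/kg, the MEF being a mixture of its calcium, magnesium and zinc salts. Vehicle was 0.8% hydroxypropyl methylcellulose. Dosing ran for 10 days and tissue was collected 12 hours after the final dose. The other brain arrays were 7 of DMF alone at 100 mg/kg (DMF100), 7 of MEF alone at 79.2 mg/kg (MEF79.2), 8 of DMF at 179.2 mg/kg (DMF179.2, the same summed mass as the combination) and 8 labelled Nav, a name the labels do not explain. A second label field names the combination brain arrays like those of DMF100, so groups were taken from the titles. Sex, age and dosing route are not given in the sources used here. The labels do not tie each array to an animal, so p-values measure the spread between arrays, which may be technical in part.

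DMF is an oral drug for relapsing multiple sclerosis. DMF carries a methyl group on both acid groups of fumarate, and MEF an ethyl group on a single acid group. Fumarate esters react with cysteines, among them those of KEAP1, the protein that marks the transcription factor NRF2 (gene Nfe2l2) for degradation, and stabilised NRF2 turns on genes for quinone reduction, glutathione use and thiol repair. In brain these genes are best known from astrocytes, which supply neurons with precursors of glutathione.

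Values are the deposited log2 expression levels of 1 probe set per gene, and 10763 genes above a low-signal filter were tested. The tissue label was borne out by its markers: all 12 neuron genes passed the filter, none of 9 lymphocyte genes and none of 8 kidney and jejunum genes did. The defining pituitary hormones Gh and Prl were at or near the lowest value. Some markers of resident cells, among them Slc1a3 of astrocytes and Itgam of microglia, were near the lowest value too, so these probe sets carried no level. Array medians lay between 5.70 and 5.83.

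The 2 groups differed in technical signals, and every result below stands beside this difference. The hybridisation controls, RNAs spiked in after labelling and averaged over 18 probe sets, were at 11.97 ± 0.04 in the combination and 12.07 ± 0.04 in vehicle (SD, n = 8 each; difference -0.102, two-sided exact permutation p = 0.000466, adjusted p = 0.0014 over 3 technical values). The 3' minus 5' difference of the actin and Gapdh control probe sets, a sign of how far RNA or labelling falls short of full length, was 0.934 ± 0.052 in the combination and 1.02 ± 0.058 in vehicle (difference -0.082, two-sided exact permutation p = 0.0113, adjusted p = 0.017). The array median differed by 0.011 (two-sided exact permutation p = 0.252). Replicate 25 of MEF79.2 stood apart from all other brain arrays, with a 3' minus 5' difference of 1.38. Replicate 28 of MEF79.2 was next, at 1.16. Counts of called genes against vehicle, against MEF79.2 and for additivity are given with and without replicate 25. Other MEF79.2 values include both arrays unless stated.

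**Figure D1:**
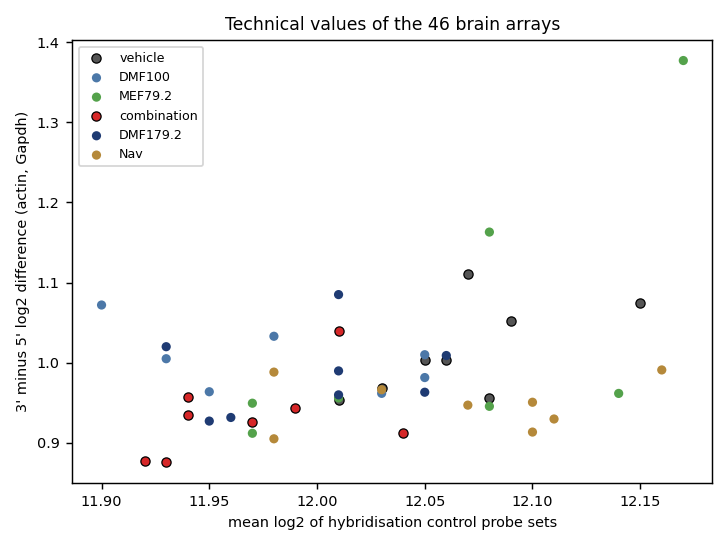
Technical values of the 46 brain arrays, with the mean log2 level of the hybridisation controls on the horizontal axis and the log2 3' minus 5' difference on the vertical axis, coloured by group, outlined for combination and vehicle. Combination arrays lie between 11.92 and 12.04 on the horizontal axis and vehicle arrays between 12.01 and 12.15, and the MEF79.2 array at 1.38 lies above all others.

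The differences called in brain were small, their number depended on the model, and the 2 genes whose call held under every setting tried, Nqo1 and Gstm1, are enzymes of the NRF2 response. Of 10763 genes, 32 were called in limma at a Benjamini-Hochberg adjusted p under 0.05 (0.297% of the genes tested), 22 higher (0.204%) and 10 lower (0.0929%). The called differences ranged in size from 0.117 to 0.625 on the log2 scale, with a median of 0.178, and only Nqo1 passed 1.5-fold. At an unadjusted p under 0.05 there were 1596 genes, and a fit with array weights called 717. The combination lay above vehicle in every array for 16 genes (0.149% of those tested) and below it in every array for 9 (0.0836%). Among the called genes 12 of 32 did not overlap, 9 higher and 3 lower. With each array centred on its own median 22 genes were called, 7 higher, in place of 22 higher among 32, so the split by direction depends on the scaling. Because whole tissue was measured, a lower level of RNA per cell and fewer cells of a type cannot be told apart.

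Nqo1, the quinone reductase used most widely as a readout of NRF2, showed the largest called difference. Its vehicle arrays lay between 7.80 and 8.27 with a median of 8.13, and its combination arrays between 8.44 and 9.02 with a median of 8.68. All 8 combination arrays were above all 8 vehicle arrays. The difference was 0.625 ± 0.094 (SE; 95% interval 0.435 to 0.814; 1.54-fold; limma adjusted p = 0.000215).

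Gstm1, a glutathione S-transferase of the mu class that conjugates electrophiles to glutathione, rose from a vehicle range of 11.84 to 12.02, median 11.87, to a combination range of 12.08 to 12.30, median 12.13. The groups did not overlap here either. The difference was 0.272 ± 0.040 (limma adjusted p = 0.000215). The probe set used for Gstm1 is of a kind that can match related transcripts, and the second bright probe set of the gene gave 0.302 and a dimmer one 0.167, both in the same direction.

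Aox1, an aldehyde oxidase that also acts on N-heterocycles, lay between 7.87 and 8.32 in vehicle, median 8.13, and between 8.35 and 8.76 in the combination, median 8.55. The groups again did not overlap, by a margin of less than 0.1. The difference was 0.441 ± 0.094 (limma adjusted p = 0.0251). Its call was lost without combination replicate 33 or 35 or without vehicle replicate 1 or 3, where the adjusted p reached 0.0842 and the difference stayed between 0.406 and 0.472.

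**Figure D2:**
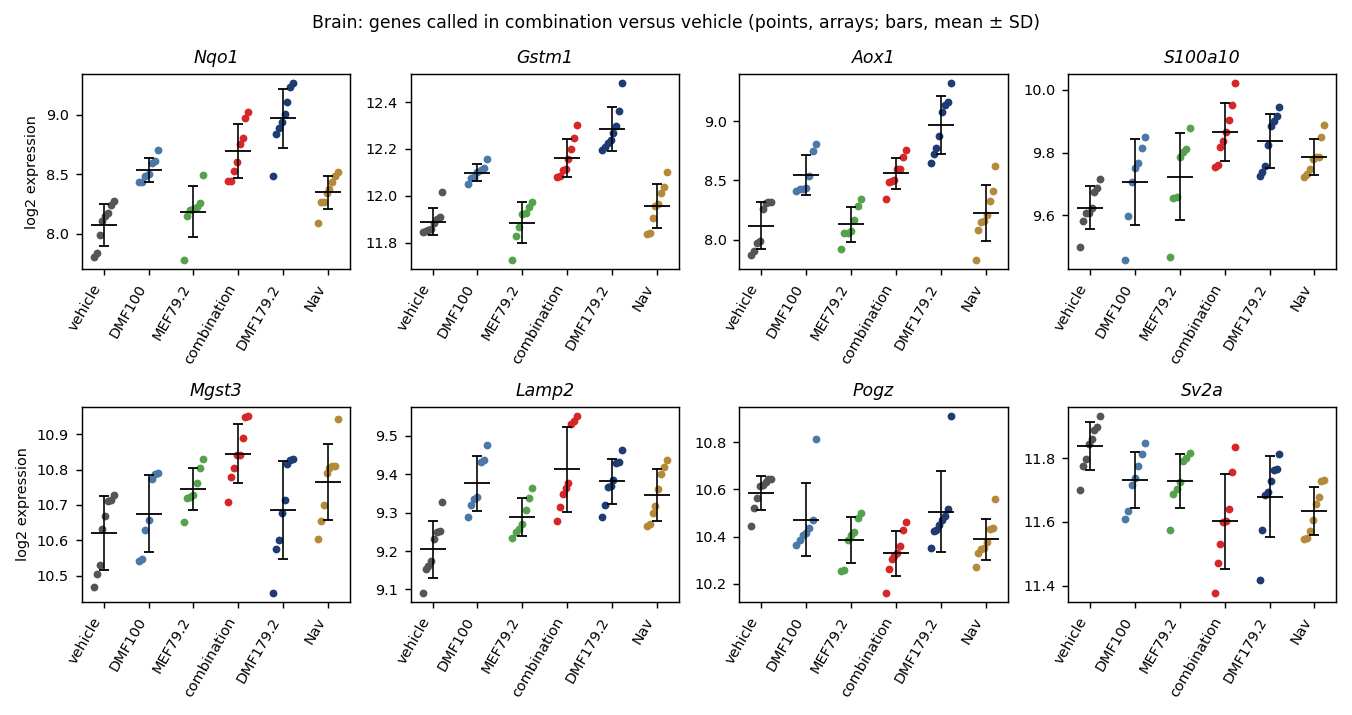
Log2 expression of 8 called genes in every brain array of the 6 groups, with points for arrays and bars for the mean ± SD. For Nqo1, Gstm1, Aox1 and S100a10 the lowest combination array lies above the highest vehicle array, while DMF179.2 arrays lie as high or higher for the first 3 genes and MEF79.2 arrays lie near vehicle for them.

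Nqo1 and Gstm1 were the 2 genes whose call held with each technical signal as a covariate. With the hybridisation controls as a covariate 2 genes were called, and with the 3' minus 5' difference 3 genes, Lamp2 being the third. Nqo1 was at 0.614 ± 0.109 with the first (limma adjusted p = 0.0150) and 0.623 ± 0.10 with the second (adjusted p = 0.00145). Gstm1 was at 0.230 ± 0.045 (adjusted p = 0.0350) and 0.241 ± 0.039 (adjusted p = 0.00145). Aox1 kept its size, 0.490 ± 0.108 and 0.445 ± 0.10, with adjusted p = 0.0925 and 0.0682. The hybridisation covariate widened the median standard error 1.13 times and the other 1.01 times. No called gene changed direction under either covariate.

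**Figure D3:**
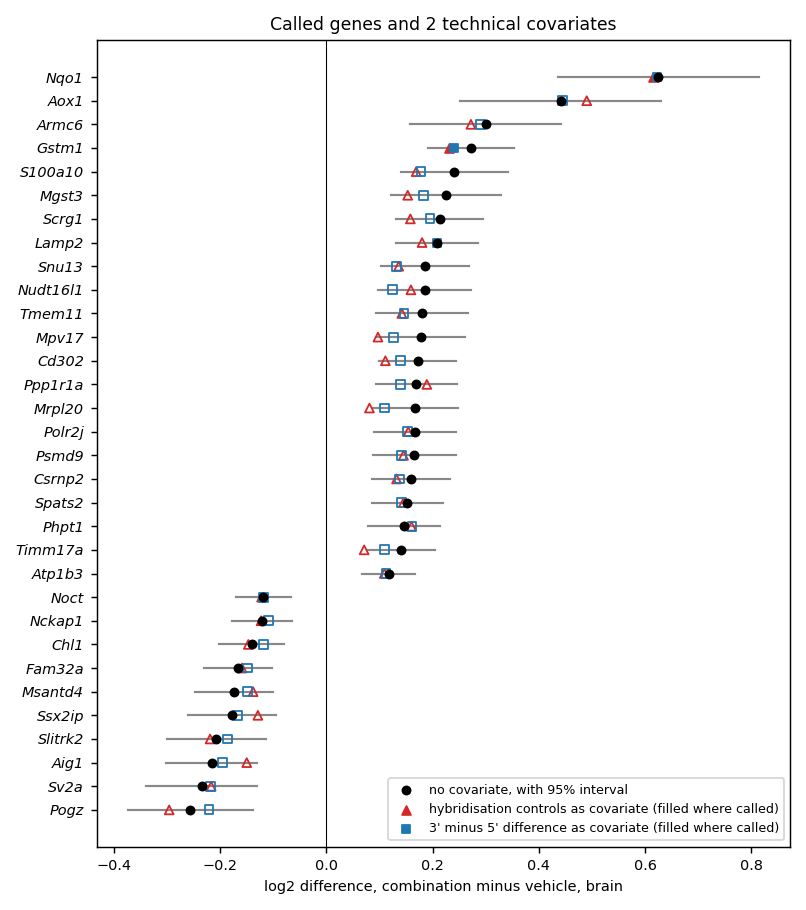
The 32 called genes by their log2 difference, combination minus vehicle, with the 95% interval (black), and the same difference with the hybridisation controls (triangles) or the 3' minus 5' difference (squares) as a covariate, filled where the gene was still called. Filled symbols of both kinds appear for Nqo1 and Gstm1 and a filled square for Lamp2, and all symbols stay on the side of 0 of the black points.

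Leaving out single arrays moved the number of calls widely. There were 5 without combination replicate 33 or 35, 13 without replicate 36, 65 without replicate 38 and 251 without replicate 37. Among vehicle arrays, there were 20 calls without replicate 1, 16 without replicate 3, 10 without replicate 5 and 7 without replicate 6. Without replicate 25 of MEF79.2, which enters only the shared variance, there were 88. Over the 16 fits that each left out a combination or vehicle array, 5 of the 32 genes kept their call every time: Nqo1 (0.578 to 0.662), Gstm1 (0.252 to 0.290), Scrg1, Lamp2 and Fam32a. The other 27 lost it in at least 1 fit.

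Of the other genes that rose, S100a10, the annexin A2 partner also known as p11, lay between 9.50 and 9.71 in vehicle (median 9.61) and between 9.75 and 10.02 in the combination (median 9.85). Its groups did not overlap, with a difference of 0.241 ± 0.050 (limma adjusted p = 0.0248). The call was lost without combination replicate 33 or 35 or vehicle replicate 6, where the adjusted p reached 0.0842.

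Mgst3, a microsomal glutathione S-transferase, ranged from 10.47 to 10.73 in vehicle (median 10.65) and from 10.71 to 10.95 in the combination (median 10.84), with ranges that met at their edges. Its difference was 0.225 ± 0.052 (limma adjusted p = 0.0343), and the call was lost in 8 of the 16 fits. Scrg1, a small secreted protein first found in scrapie-infected brain, lay between 9.41 and 9.68 in vehicle and between 9.73 and 9.88 in the combination, without overlap. It differed by 0.213 ± 0.041 (adjusted p = 0.00951). Lamp2, a membrane protein of lysosomes, differed by 0.208 ± 0.038 (adjusted p = 0.00901), with overlapping groups of 9.09 to 9.33 and 9.28 to 9.55. A second Lamp2 probe set gave 0.194, but the brightest one in brain gave -0.018, so the direction of this gene depends on the probe set.

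The other genes that rose were Armc6 (0.300), Snu13 (0.186), a component of spliceosomal and nucleolar RNA particles, Nudt16l1 (0.185), Tmem11 (0.180) and Mpv17 (0.178), the last 2 proteins of the inner mitochondrial membrane. Of these, Mpv17 alone had groups that did not overlap, 9.35 to 9.63 in vehicle and 9.63 to 9.82 in the combination. The other probe set of Snu13 gave 0.007. The 10 smallest increases ran from Cd302 at 0.172 to Atp1b3 at 0.117, and they took in the mitochondrial import subunit Timm17a (0.141) and the mitochondrial ribosome protein Mrpl20 (0.167), these 4 being named after their values were seen. Only Nqo1, Gstm1 and Aox1 of the 22 were on any of the gene lists used here.

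Among the 10 genes that fell, Pogz had the largest difference (-0.256) and Noct the smallest (-0.119). Sv2a, a glycoprotein of synaptic vesicles and the target of levetiracetam, lay between 11.70 and 11.93 in vehicle (median 11.85) and between 11.38 and 11.84 in the combination (median 11.60). Most combination arrays were below vehicle and the ranges overlapped. The difference was -0.235 ± 0.052 (limma adjusted p = 0.0292), and Sv2a was the only called gene among 17 tested genes of synaptic vesicles and release, 7 of which were positive. Pogz, a chromatin protein, differed by -0.256 ± 0.058 (adjusted p = 0.0343), with overlapping groups, and its call was lost when probe sets of a gene were averaged (-0.099) and in 9 of the 16 fits that left out an array.

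Slitrk2, a synaptic adhesion protein, lay between 7.80 and 8.0 in vehicle and between 7.54 and 7.77 in the combination, and Aig1, a hydrolase of fatty acid esters, between 9.66 and 9.84 and between 9.41 and 9.64. Neither gene's groups overlapped. Slitrk2 differed by -0.208 ± 0.046 (adjusted p = 0.0305) and Aig1 by -0.216 ± 0.043 (adjusted p = 0.0143). Fam32a was the third without overlap, at -0.167 ± 0.032 (adjusted p = 0.00951). Smaller declines were called for Ssx2ip (-0.177), a protein of centrosomes, Msantd4 (-0.174), the neural adhesion molecule Chl1 (-0.141), Nckap1 (-0.121), a subunit of the WAVE complex that nucleates actin branches, and Noct (-0.119), a clock-controlled phosphatase of NADP.

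Across the NRF2 target list, 32 of 51 genes were tested, 45 having a probe set of their own, and 26 of the 32 were positive (81.2%, against 53.9% of all genes tested). The median difference of the list was 0.083, against 0.007 over all genes. Nqo1, Gstm1 and Aox1 were called and none was called lower, while 17 were higher at an unadjusted p under 0.05 (8.78% of all genes tested were) and none lower. The mean level of the 32 genes was between 9.35 and 9.49 in vehicle arrays and between 9.49 and 9.65 in combination arrays, so the groups met at their edges. Over the 12 other settings tried the median of the list lay between 0.051 and 0.117. Against the same vehicle arrays, most of the list was positive in the other groups too. The counts were 28 of 32 for DMF100, 23 for MEF79.2, 29 for DMF179.2 and 23 for Nav. In the combination other lists, picked after their values were seen, had like shares, smaller medians and no call. These were ribosomal protein genes (80.8%, median 0.034), respiratory chain subunits (76.7%, 0.028) and proteasome subunits (73.3%, 0.034). Heat shock chaperones stood at 20%. Larger medians than that of the NRF2 list were found for 4 marker lists, also without a call. These were choroid plexus (0.163), meninges and perivascular fibroblasts (0.136), blood cells (0.105) and microglia (0.091).

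The largest value on the list was that of Gstm2, a further mu-class transferase, which missed the threshold. It lay between 4.82 and 5.86 in vehicle (median 5.50) and between 5.55 and 6.44 in the combination (median 6.22), overlapping, with a difference of 0.726 ± 0.181 (limma adjusted p = 0.0557). Its level is low on the array, near the filter at 5.79. The vehicle median lay below the filter, so Gstm2 was tested in part through groups where it is higher. Of the glutathione synthesis enzymes, Gclm, the modifier subunit of glutamate-cysteine ligase, was at 0.232 ± 0.079 (adjusted p = 0.149) and Gclc, the catalytic subunit, at 0.149 ± 0.085 (adjusted p = 0.412). Slc7a11, the cystine importer, was at -0.034 ± 0.161.

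Other members with higher values that did not pass were Mgst1 at 0.280, the iron-binding protein Pir at 0.254, the epoxide hydrolase Ephx1 at 0.227, the biliverdin reductase Blvrb at 0.207 and the ferritin light chain Ftl1 at 0.168 (limma adjusted p between 0.0953 and 0.164; these 5 were named after their values were seen). Hmox1, heme oxygenase, was at 0.181 ± 0.087 (adjusted p = 0.316) and Cbr3, a carbonyl reductase, at 0.156 ± 0.053 (adjusted p = 0.150). Gsta4 was at 0.080. The thiol repair genes Srxn1, sulfiredoxin, at -0.036 ± 0.034, and Txnrd1, thioredoxin reductase, at 0.026 ± 0.031, stayed near 0. Nfe2l2 itself was at 0.002, and Osgin1 was below the filter.

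Genes of fumarate handling and of metal binding gave no call. Fh1, fumarate hydratase, lay between 11.04 and 11.40 in vehicle and between 11.01 and 11.27 in the combination. Hcar2, the receptor that monomethyl fumarate activates, was at the lowest value of 2.08 in every vehicle array and up to 2.27 in the combination, so it carried no level. Mt1, a metallothionein that responds to zinc, lay between 12.18 and 12.38 in vehicle and between 12.28 and 12.41 in the combination, overlapping. By limma none of 11 genes of fumarate handling was called, with 1 higher and 0 lower at an unadjusted p under 0.05, and none of 18 metallothioneins and zinc transporters, with 1 higher and 3 lower. Single genes of other responses were not called either: the glucocorticoid targets Sgk1 at 0.162 ± 0.076 and Fkbp5 at -0.018 ± 0.076, the cold-induced Cirbp at 0.116 ± 0.062, the clock output Dbp at 0.081 ± 0.083, the astrocyte filament Gfap at -0.005 ± 0.071 and Mt3, the neural metallothionein, at 0.003 ± 0.091. Keap1 and Mt2 were not analysed here. Of 43 lists with a tested member, only the NRF2 list and the synaptic vesicle list held a called gene.

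Marker lists of other cells in the brain sample held no called gene, but the medians of some lay above that of all genes (0.007). Of choroid plexus genes 10 of 10 were positive with a median of 0.163, and of meningeal and perivascular fibroblast genes 13 of 13 with a median of 0.136. Against the same vehicle arrays the choroid plexus median was 0.388 in DMF100, 0.138 in MEF79.2, 0.206 in DMF179.2 and 0.335 in Nav. The meningeal median was -0.017, 0.233, 0.314 and 0.338 in the same order. Mean levels of both lists overlapped between vehicle and combination, from 6.61 to 7.77 in vehicle and 6.71 to 8.39 in the combination for choroid plexus, and from 7.90 to 8.42 and 8.08 to 8.47 for meninges. Ttr, the transthyretin made by choroid plexus, lay between 12.54 and 13.45 in vehicle and between 12.86 and 13.63 in the combination. At an unadjusted p under 0.05, 1 choroid plexus gene and 3 meningeal genes were higher and none lower. Genes of blood cells had a median of 0.105 (4 of 5 positive), among them the hemoglobin gene Hba-a2 at 0.200 ± 0.059 (limma adjusted p = 0.0949), with mean levels of 8.75 to 9.50 in vehicle and 9.04 to 9.51 in the combination. Microglial genes had a median of 0.091 (10 of 14 positive, 4 higher and 1 lower at an unadjusted p under 0.05) and mean levels of 8.02 to 8.17 and 8.04 to 8.21, and neuronal genes had a median of -0.013 (4 of 12 positive). The part of these cells in the results above was not tested.

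The combination was also set beside each single treatment. The 3 comparisons against DMF100, MEF79.2 and DMF179.2 share the combination arrays, and those against vehicle share the vehicle arrays. Nqo1 lay between 8.43 and 8.71 in DMF100, between 7.77 and 8.49 in MEF79.2, between 8.49 and 9.27 in DMF179.2 and between 8.09 and 8.52 in Nav. Against vehicle it stood at 0.466 in DMF100, 0.114 in MEF79.2, 0.902 in DMF179.2 and 0.276 in Nav, and Gstm1 at 0.209, -0.005, 0.396 and 0.067. Aox1 stood at 0.426, 0.010, 0.847 and 0.104 in the same order.

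Other genes called in the combination had values as large in Nav, which is set against the same vehicle arrays. Msantd4 stood at -0.174 in the combination and -0.209 in Nav, Ppp1r1a at 0.169 and 0.211, Snu13 at 0.186 and 0.202, Aig1 at -0.216 and -0.228, Csrnp2 at 0.159 and 0.193, and Chl1 at -0.141 and -0.155, each called in both. Sv2a (-0.235 and -0.203), Pogz (-0.256 and -0.196) and Lamp2 (0.208 and 0.142) were called in both as well. Of the 32 genes called in the combination, 15 were called in Nav too, beside 412 called in Nav among the 10763 tested. The genes given here were picked from the 15 after their values were seen.

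Adding MEF to DMF gave no called difference for these 3 genes. Against DMF100, the combination differed by 0.159 for Nqo1 (95% interval -0.037 to 0.355), 0.063 for Gstm1 (-0.021 to 0.146) and 0.015 for Aox1 (-0.180 to 0.211). Against MEF79.2 it was higher for all 3, by 0.511 ± 0.097 for Nqo1 (limma adjusted p = 0.0149), 0.277 ± 0.041 for Gstm1 (adjusted p = 0.000385) and 0.431 ± 0.097 for Aox1 (adjusted p = 0.0357). Against DMF179.2 the unadjusted 95% intervals were -0.466 to -0.087 for Nqo1, -0.204 to -0.043 for Gstm1 and -0.594 to -0.217 for Aox1, and no difference was called (limma adjusted p = 0.230, 0.204 and 0.0690). Over the NRF2 list the combination was lower than DMF179.2 for 26 of 32 genes, none called, with a median of -0.055 against -0.015 for all genes.

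Over all genes, the combination differed from MEF79.2 at 23 genes (0.214%), 9 higher and 14 lower. Lpar6, a receptor for lysophosphatidic acid, was higher by 0.379 ± 0.064 (limma adjusted p = 0.00236), with combination arrays between 7.10 and 7.39 and MEF79.2 arrays between 6.66 and 6.97, without overlap. Vehicle arrays of Lpar6 lay between 7.05 and 7.44, beside the combination. The ion channel-like gene Tmc4 was lower by 0.499, Lrfn3, a synaptic adhesion protein, by 0.455 and Ssh3, a cofilin phosphatase, by 0.355, while Rida was higher by 0.361 and Cetn4, a centrin, by 0.319. Dpysl5 and Ap1m1 were lower by 0.261 and 0.259. Tmc4 and Lrfn3 lay near the filter at 5.79, and Tmc4 passed it in part through the MEF79.2 arrays. Its combination arrays, 5.12 to 5.73, were all below the filter, and its MEF79.2 arrays lay between 5.51 and 6.16. Lrfn3 lay between 5.49 and 5.87 in the combination and between 5.84 and 6.72 in MEF79.2. Without replicate 25 of MEF79.2, 5 genes were called in place of 23, and the calls of Aox1, Rida, Cetn4, Tmc4, Lrfn3, Dpysl5 and Ap1m1 were lost while those of Nqo1, Gstm1, Lpar6 and Ssh3 were kept. With the hybridisation controls as a covariate 1 gene was called, and with the 3' minus 5' difference 2.

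Against DMF179.2 a single gene was called (0.00929%), Nfatc3, a calcium-regulated transcription factor. It lay between 8.41 and 8.74 in the combination and between 8.70 and 8.98 in DMF179.2, overlapping slightly, and differed by -0.306 ± 0.049 (limma adjusted p = 0.00188). The vehicle range of 8.63 to 8.85 overlapped both. At an unadjusted p under 0.05 there were 1239 genes, and with probe sets of a gene averaged no gene was called, Nfatc3 then being at -0.157.

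Against DMF100 several immediate early genes were lower in the combination. Immediate early genes are switched on within minutes by neuronal firing or by other stimuli, without new protein synthesis. Of 10 called genes (0.0929%), 8 were lower (0.0743%), among them Nr4a1, a nuclear receptor, Arc, a regulator of synaptic glutamate receptors, Trib1, a pseudokinase, Dusp1, a phosphatase of MAP kinases, and Tiparp, an ADP-ribosyltransferase. The 2 higher genes were Crybb1 (0.330) and 8430429K09Rik (0.337), and the lower ones also held Slitrk2 (-0.239), Cttnbp2nl and Ptch1. Of 20 tested immediate early genes, 3 were called lower and 17 were negative, with a median of -0.124 against 0.003 for all genes. Without DMF100 replicate 14 or combination replicate 37 the count of called genes was 3, without DMF100 replicate 11 it was 4, and without DMF100 replicate 16 or combination replicate 36 it was 6.

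Nr4a1 lay between 8.11 and 8.75 in DMF100 (median 8.47) and between 6.89 and 8.56 in the combination (median 6.99). Replicate 39 of the combination, at 8.56, was the only combination array inside the DMF100 range, and the other 7 were at or below 7.51. The difference was -1.17 ± 0.20 (limma adjusted p = 0.006). For Arc the DMF100 arrays lay between 9.72 and 10.25 and the combination arrays between 8.26 and 10.27, a difference of -1.15 ± 0.24 (adjusted p = 0.0284), whose call was lost without any of 4 DMF100 arrays (replicates 11, 14, 15 and 16) and any of 4 combination arrays (32, 33, 36 and 37). Dusp1 lay between 11.59 and 11.94 in DMF100 and between 10.77 and 11.90 in the combination, again with replicate 39 alone inside the DMF100 range, and differed by -0.623 ± 0.116 (adjusted p = 0.011). Trib1 differed by -0.703 and Tiparp by -0.476, and Tiparp's groups, 7.83 to 8.19 in DMF100 and 7.34 to 7.75 in the combination, did not overlap.

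Some genes stood below the sum of the single treatments. The departure from additivity is the combination's log2 difference from vehicle minus those of DMF100 and MEF79.2, and 0 means that the single differences add up. It was called for 19 genes (0.177%), 17 of them below 0 (0.158%). All 17 were positive against vehicle under DMF100 and under MEF79.2, 16 being called under DMF100, 2 under MEF79.2 and none under the combination. The same arrays picked these genes, so this pattern follows in part from the selection and is no separate result. Nqo1 (0.045), Gstm1 (0.068) and Aox1 (0.005) were near 0, with intervals of -0.233 to 0.322, -0.051 to 0.186 and -0.271 to 0.282.

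Nr4a1 departed by -1.87 ± 0.28 (limma adjusted p = 0.00045). Its log2 difference from vehicle was 1.39 under DMF100, 0.70 under MEF79.2 and 0.22 under the combination. Vehicle arrays of Nr4a1 lay between 6.23 and 8.18, MEF79.2 arrays between 7.63 and 8.02 and DMF179.2 arrays between 7.74 and 8.25, so vehicle and combination were the most spread groups. In vehicle, replicate 1 at 8.18 stood above the other 7, as replicate 39 did in the combination.

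Arc departed by -1.90 ± 0.34 (limma adjusted p = 0.00289), with 1.56 under DMF100, 0.75 under MEF79.2 and 0.41 under the combination. Egr2, a zinc finger transcription factor, departed by -1.77 ± 0.35 (adjusted p = 0.0116), and its second probe set by -1.82. Its arrays lay between 7.71 and 9.52 in vehicle, 9.04 and 10.03 in DMF100, 9.02 and 9.59 in MEF79.2 and 8.17 and 10.14 in the combination. Most vehicle and combination arrays lay below both single treatments.

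Fos, a subunit of the AP-1 factor, departed by -1.44 ± 0.32 (limma adjusted p = 0.0348) and Rbm3, a cold-induced RNA-binding protein, by -1.12 ± 0.25 (adjusted p = 0.0353). These calls were less secure, being lost in 17 and 19 of the 30 fits that each left out an array of the 4 groups. Per1, a clock gene that also responds acutely to stimuli, departed by -1.07 ± 0.18 (adjusted p = 0.00158), and was higher than vehicle by 0.66 in DMF100 and 0.79 in MEF79.2, while its 0.38 in the combination was not called. In all 30 fits 11 of the 19 calls held, among them Nr4a1, Arc, Egr2, Per1, Trib1, Dusp1 and Tiparp. Without combination replicate 39 the count of calls was 33. Without MEF79.2 replicate 25 it was 16, with 4 of the 19 calls lost (Coq10b, Dyrk3, Gpr3 and Tent5a), and Nr4a1 was then at -1.83 and Arc at -1.87. It was 11 without combination replicate 38, DMF100 replicate 15 or vehicle replicate 5, and 12 without DMF100 replicate 14, MEF79.2 replicate 29 or 30, or vehicle replicate 3 or 7.

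**Figure D4:**
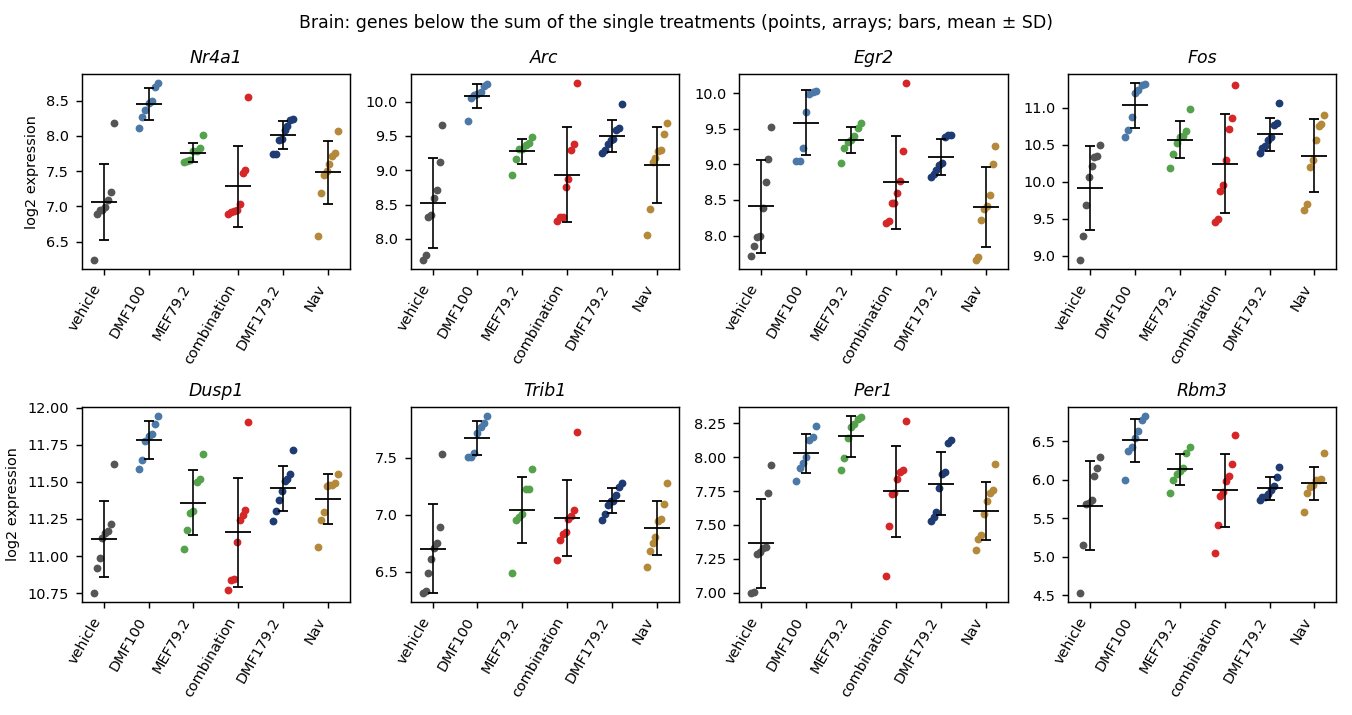
Log2 expression of 8 genes called below additivity in every brain array of the 6 groups, with points for arrays and bars for the mean ± SD. The DMF100 mean lies above those of vehicle and combination for all 8 genes. The combination mean lies nearer vehicle than DMF100 for all but Per1. Replicate 39 of the combination is the highest point of its group for Nr4a1 (8.56) and Trib1 (7.72).

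The remaining genes below additivity, named after their values were seen, were Gpr3, Pvr, Dyrk3, Iqcb1, Tent5a, Phf13, Gpr19 and Coq10b, from -0.781 for Gpr3, a constitutively active receptor that raises cyclic AMP, to -0.315 for Coq10b. The 2 genes above additivity were Sft2d3 (0.483 ± 0.086, limma adjusted p = 0.00289) and Lpar6 (0.446 ± 0.090, adjusted p = 0.013). Sft2d3 was below vehicle by 0.349 under DMF100, by 0.241 under MEF79.2 and by 0.106 under the combination. Of 20 immediate early genes 16 were below additivity, 5 of them called, with a median of -0.195 against -0.011 for all genes. Among members that were not called, Egr1 was at -0.213 (limma adjusted p = 0.415), beyond the list's median, Fosb at -0.009, Jun at 0.036 and Nr4a2 at 0.104.

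The promoters of 3 of these genes are shown because the genes moved together and carry the letters TGACG, the core that factors of the CREB and ATF family bind. Each runs from 250 bases before to 50 bases after the RefSeq start (build GRCm38.p6) and is written along the gene's own strand. Capitals mark TGACG or its reverse complement CGTCA, and both strands were searched.
Nr4a1, chr15:101266596-101266895, plus strand: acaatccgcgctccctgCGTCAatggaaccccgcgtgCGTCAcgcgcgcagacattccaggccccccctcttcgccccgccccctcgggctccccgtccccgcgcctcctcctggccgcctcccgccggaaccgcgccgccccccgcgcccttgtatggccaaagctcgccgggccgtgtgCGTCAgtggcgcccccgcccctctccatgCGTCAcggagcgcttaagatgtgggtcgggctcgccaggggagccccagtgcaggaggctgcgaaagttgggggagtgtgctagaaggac
Fos, chr12:85473640-85473939, plus strand: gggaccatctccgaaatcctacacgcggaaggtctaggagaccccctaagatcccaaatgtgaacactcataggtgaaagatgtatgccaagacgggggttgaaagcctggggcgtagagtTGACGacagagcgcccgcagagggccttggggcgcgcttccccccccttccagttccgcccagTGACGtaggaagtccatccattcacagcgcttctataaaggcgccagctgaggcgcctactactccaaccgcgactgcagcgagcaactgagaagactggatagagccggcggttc
Dusp1, chr17:26508423-26508722, minus strand: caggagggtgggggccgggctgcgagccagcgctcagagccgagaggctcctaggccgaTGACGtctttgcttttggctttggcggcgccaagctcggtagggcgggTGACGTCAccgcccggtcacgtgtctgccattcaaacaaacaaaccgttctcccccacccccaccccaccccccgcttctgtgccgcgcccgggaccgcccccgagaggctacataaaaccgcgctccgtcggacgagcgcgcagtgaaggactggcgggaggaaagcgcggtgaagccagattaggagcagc

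These windows hold 4, 2 and 3 matches, and the overlapping pair in Dusp1 forms the palindrome TGACGTCA. TGACG occurred in 20.8% of 32851 RefSeq promoter windows of the same length, and in at least 1 window of 23% of 27025 genes. Of the 17 genes called below additivity, 13 had a window and 9 of these held the letters (69.2%): Coq10b, Dusp1, Egr2, Fos, Gpr19, Gpr3, Nr4a1, Per1 and Phf13. The 13 genes had 22 windows, of which 12 held the letters (54.5%). The palindrome was in 1.79% of all windows and 2.03% of all genes, and in 1 of the 22 windows and 1 of the 13 genes. The search was chosen after the genes were known, and a match describes the letters only. The antioxidant response element core TGACNNNGC was in 12.4% of windows and in 14% of genes. It was in 2 of 19 genes called higher than vehicle (10.5%), Atp1b3 and Psmd9, and in 5 of 13 called below additivity (38.5%), Dusp1, Egr2, Gpr19, Gpr3 and Per1.

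The combination's response in brain was then set against that in kidney, which has 7 arrays of vehicle and 8 of the combination. Each tissue was normalized apart, so the test compares the 2 differences from vehicle, never levels. Of 9241 genes tested in both tissues, 959 differed (10.4%), 544 with the lower value in brain and 415 with the higher. Of 31 NRF2 list genes tested in both, 18 differed, all with the lower value in brain, and the median difference from vehicle was 0.085 in brain and 0.418 in kidney.

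Cbr3 differed most. In kidney its vehicle arrays lay between 5.61 and 6.27 and its combination arrays between 8.35 and 9.10, without overlap, a difference of 2.69. In brain the arrays overlapped, 7.63 to 7.90 and 7.61 to 8.13, with 0.156, so the responses differed by -2.53 ± 0.14 (limma adjusted p = 2.87e-26). Hmox1 stood at 0.181 in brain and 0.855 in kidney, Pir at 0.254 and 1.24, Blvrb at 0.207 and 0.962, and Ephx1 at 0.227 and 0.966. Srxn1 (-0.036 and 0.418) and Txnrd1 (0.026 and 0.292) were called between tissues too.

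Of the genes called in brain, Gstm1 stood at 0.272 in brain and 0.672 in kidney (difference -0.400 ± 0.052, limma adjusted p = 2.17e-08), and Aox1 at 0.441 and 1.26 (adjusted p = 0.0303). Nqo1 stood at 0.625 and 0.967, and this difference of -0.342 ± 0.127 was not called (adjusted p = 0.0674). Of the NRF2 list, 6 genes had the higher value in brain, none called: Gstm2 (0.726 against 0.378, adjusted p = 0.240), Ftl1, Mgst1, Txn1, Prdx1 and Entpd5. Of 28 brain-called genes tested in both tissues 7 differed: Aox1, Gstm1, Aig1 and Nckap1 with the lower value in brain, and Lamp2 (0.208 against -0.036), Mpv17 and Phpt1 with the higher. The same brain arrays picked these genes, which favours larger sizes in brain. For Lamp2 another probe set, the brightest of the gene in brain, gave -0.018 there.

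**Figure D5:**
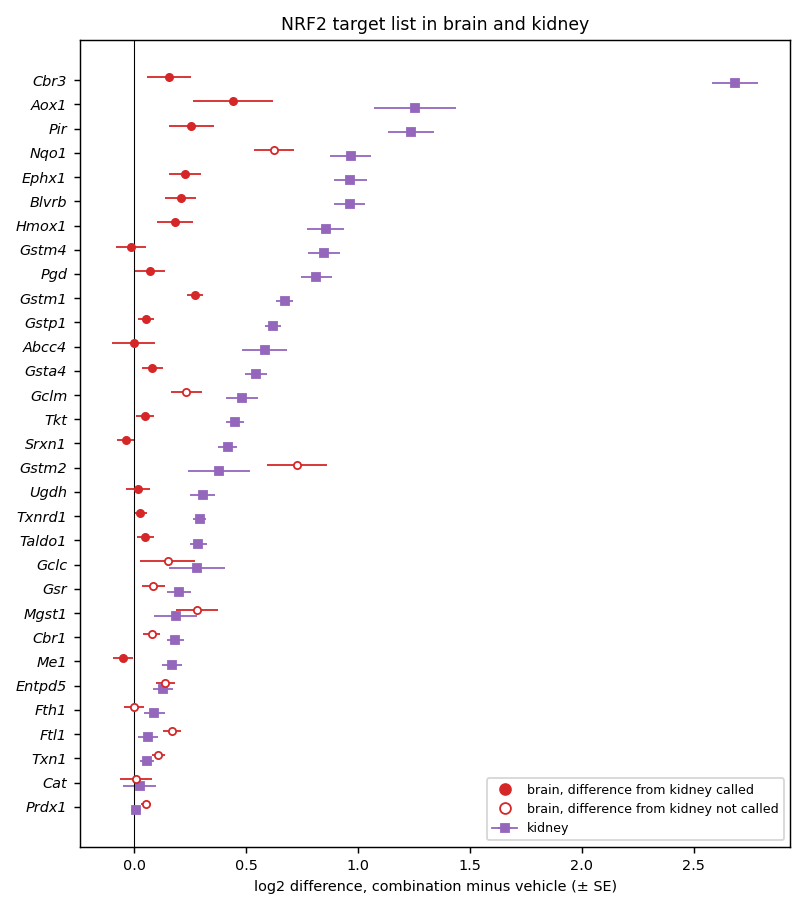
Log2 difference, combination minus vehicle, of the 31 NRF2 list genes tested in both tissues, in brain (circles, filled where the difference from kidney was called) and kidney (squares), with bars for the standard error. Filled circles all lie left of their kidney squares, from Cbr3 (0.156 in brain, 2.69 in kidney) to Me1, and Gstm2 is the gene with the largest value in brain.

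Outside that list, the responses that were lower in brain by most were those of Alas1, the first enzyme of heme synthesis (-0.007 in brain, 1.35 in kidney), Slc38a3, a glutamine carrier (0.013 and 1.2), G6pd2, a glucose-6-phosphate dehydrogenase (0.199 and 1.33), and Ttr (0.167 and 1.23). Those with the higher value in brain had negative values in kidney: Mfsd2a, a carrier of lysophosphatidylcholine (0.138 and -1.08), Fst, follistatin (0.137 and -0.963), Aqp4, the astrocyte water channel also made in kidney (-0.054 and -1.09), Chrdl1 (0.017 and -0.979) and Bex1 (-0.120 and -1.02). None of these 9 genes was called in brain.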

How the data were processed

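Brain and kidney RNA was measured on Affymetrix HT MG-430 PM arrays. The authors deposited log2 expression values for 45141 probe sets, and the submitters' processing notes name RMA, GCRMA, R 2.11.1 and limma 3.4.5 without their roles. Depth does not apply to arrays, and the number of arrays limits the precision. Of the probe sets 28898 carried 1 gene symbol, 551 several and 15692 none. Each of 17097 genes was represented by its probe set of highest mean over all 308 arrays, and 10763 genes above the brain median level of 5.79 in at least 5 arrays were tested. All 46 brain arrays entered 1 limma fit (3.58.1, R 4.3.3), with Benjamini-Hochberg adjusted p under 0.05 as a call, tested on simulated data. Named were up to 12 called genes each way against vehicle, up to 5 each way in other comparisons, up to 4 called members of each list, and a fixed set of NRF2, metal, stress and clock genes whatever their values. Other names, among them Gstm2, Hba-a2 and Egr1, fall outside these rules, and only some of them are marked as chosen after their values were seen. The members and lists were chosen with earlier results of these data known. Alternatives were other filters, normalizations, variance models, probe set rules, covariates and leaving out arrays.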

Additional observations from a re-analysis of the deposited data

Results flagged for a closer look

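Single arrays stood apart from the rest of their group in 11 of 112 values examined by Dixon's criterion, where chance gives about 1 in 20. Vehicle replicate 6 was high for Gstm1 (12.02), vehicle replicate 1 low for Mpv17 (9.35) and high for Trib1 (7.53), vehicle replicate 4 high for Fkbp5 (8.64) and Sgk1 (12.09), and vehicle replicate 8 low for Slc7a11 (5.66). Combination replicate 37 was low for Nudt16l1 (8.07) and Cirbp (8.05), replicate 38 high for Gclm (8.05), and replicate 39 high for Nr4a1 (8.56) and Trib1 (7.72).

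The response to the combination differed between brain and kidney by a test of the difference at 959 genes. The named ones were Mfsd2a (1.216), Fst (1.101), Aqp4 (1.038), Chrdl1 (0.996), Bex1 (0.899), Cbr3 (-2.53), Alas1 (-1.361), Slc38a3 (-1.189), G6pd2 (-1.125) and Ttr (-1.06). The departure from additivity was called at 19 genes, with Sft2d3 (0.483) and Lpar6 (0.446) above 0 and Arc (-1.903), Nr4a1 (-1.871), Egr2 (-1.766), Fos (-1.439) and Rbm3 (-1.121) below.

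Outside the comparisons, 412 genes were called between Nav and vehicle in brain, 220 higher and 192 lower. This comparison and that of the combination share the vehicle arrays, and 15 of the 32 genes called in the combination were called in both. Some of the 15 are given with their values beside the single treatments. Among 6574 probe sets without a single gene symbol, 19 were called between combination and vehicle, 8 higher and 11 lower.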

How the results depend on the processing

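Nqo1 and Gstm1 kept their direction and call under all 12 alternatives and all 16 fits that left out a combination or vehicle array. The count of 32 genes called against vehicle was 52 with the filter at the 70th percentile or with every probe set on its own, 717 with array weights, 11 with the 2 groups alone, 2 with the hybridisation controls or with both technical values as covariates, and 3 with the 3' minus 5' difference. The 10 genes called against DMF100 became 39 with array weights and 6 with probe sets averaged or with the 3' minus 5' difference. The 23 called against MEF79.2 became 4 with no filter, 10 with array weights, 1 with the hybridisation controls, 2 with the 3' minus 5' difference and 5 without MEF79.2 replicate 25. The 1 called against DMF179.2 became 2 with no filter, 13 with array weights and 0 with probe sets averaged. The 19 called for additivity became 11 with no filter and 53 with array weights. Leaving out single arrays gave 5 to 251 calls against vehicle, 3 to 15 against DMF100 and 11 to 33 for additivity. Lamp2 reversed, to -0.018, with the probe set of highest mean in brain. Apart from what an alternative changes by construction, the cause was not tested.

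Brain and kidney arrays share numbers, and the labels do not say whether a number marks an animal. Deviations of same-numbered arrays had correlations from -0.027 to 0.542 (median 0.11, 25 of 45 over 0.1). The median for unequal numbers was -0.001, and in 9 of the 45 pairs the array's own number correlated best. The main test did not pair arrays by number, and shared animals are not excluded. With the replicate block 1421 genes differed between tissues in place of 959. Brain groups share no numbers. Probe sets near the lowest value, such as Hcar2, carry no level, and no value separates the treatment from the technical difference between the 2 groups.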
